A study of Homo sapiens with 2 samples.

Results

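The genes described here are those of Wnt and β-catenin signaling together with the hepatoma marker GPC3. They were chosen by name, as β-catenin, its destruction complex, feedback targets and GPC3, and 10 genes were named. Of these 10, 7 were among the 16424 listed genes: CTNNB1, AXIN1, APC, LGR5, RNF43, TCF7L2 and GPC3. AXIN2, LEF1 and NKD1 were not among the listed genes and were not analysed here.

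The study asked which signals M2BPGi, a glycan isomer of Mac-2-binding protein, regulates in hepatocellular carcinoma cells. Capped RNA ends were counted by cap analysis of gene expression (CAGE) in PLC/PRF/5 cells, an established human hepatoma line. Non-treated cells gave 1 library and cells given M2BPGi (3 µg/ml, 6 h) gave 1 library, so no difference below has a replicate check. The libraries held 24040209 tags (non-treated) and 24862941 tags (M2BPGi-treated), and levels are given as CPM, each tag number scaled to the library total.

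In the absence of a Wnt ligand, a destruction complex built on AXIN1 and APC holds β-catenin for phosphorylation and degradation. Wnt binding to Frizzled and LRP receptors inactivates that complex, and stabilised β-catenin then enters the nucleus and activates target genes with TCF and LEF factors. Several of these targets feed back on the pathway. In the liver the pathway sets the zonation of hepatocytes around the central vein, and mutations of CTNNB1 and AXIN1 are frequent in hepatocellular carcinoma.

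The core of β-catenin control divided by direction. CTNNB1 and AXIN1 were higher in M2BPGi-treated cells, while APC, TCF7L2, LGR5, RNF43 and GPC3 were lower. Each difference was small: 0 of the 7 genes passed 1.5-fold in either direction. Of the 13724 genes averaging 1 CPM or more, 1.60% passed 1.5-fold upwards and 4.04% downwards. These are 219 and 555 genes, and the split was 298 and 412 with the median of all genes shifted to 0, and 292 and 441 with a trimmed mean of all ratios. All 7 listed genes passed this filter on low values.

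Differences are given as log2 ratios, M2BPGi-treated over non-treated, computed after adding 1 CPM to each value. Intervals are 95% intervals from the tag numbers, exact Poisson for a level and Clopper-Pearson for a ratio without the added CPM. They cover counting error and no variation between cultures. The interval of the log2 ratio lay above 0 for 2 of the 7 genes and below 0 for 5, beside 22.8% and 31.5% of the 13724 genes (27.7% and 26.1% with a trimmed mean of all ratios, where the 7 genes kept their counts). The 7 genes had 433 to 3462 tags in a library, which gave half-widths of 0.07 to 0.19 on the log2 scale. Intervals this narrow leave out 0 for small differences, so the counts describe these libraries and not the treatment.

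The median log2 ratio of the 7 genes was −0.26, and that of all 13724 genes was −0.05, with quartiles of −0.26 and 0.14. Lower values were the more frequent ones among all genes, at 57.0%, against 42.9% higher. This share depends on the scaling: with a trimmed mean of all ratios it was 50.7% lower and 49.3% higher, and with the median shifted to 0 it is even by construction. The 7 genes stayed 2 higher and 5 lower under both.

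**Figure D1:**
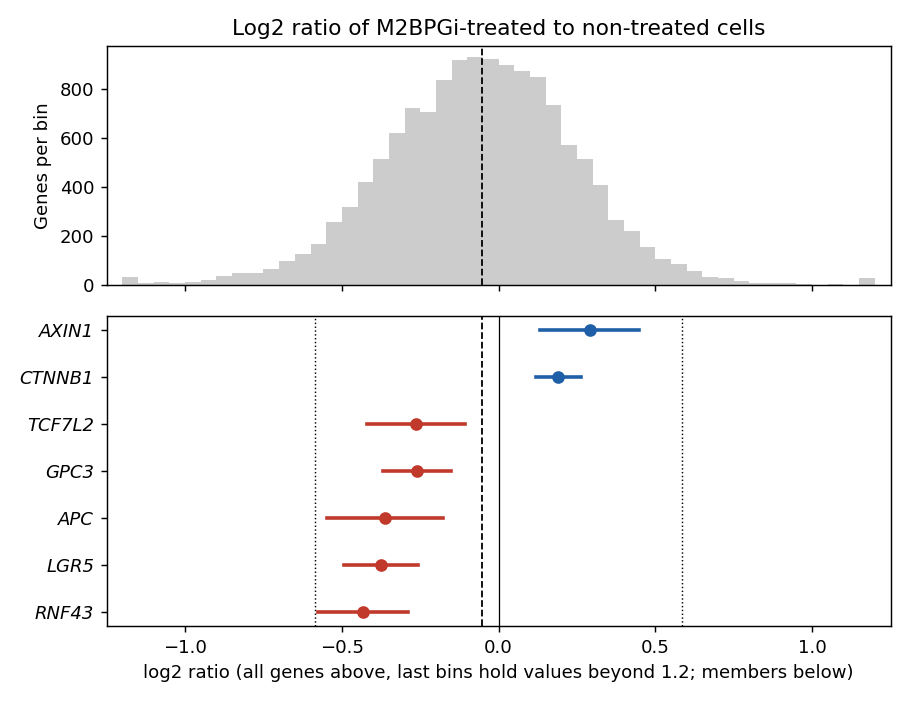
Log2 ratio, M2BPGi-treated over non-treated, for the 13724 genes as a histogram (top; genes per bin, the last bins holding values beyond 1.2) and for each listed Wnt gene and GPC3 from its tags (bottom; point with 95% Clopper-Pearson interval, 1 library per group). AXIN1 and CTNNB1 lie right of 0 and the other 5 genes left of 0, all inside the dotted lines at 1.5-fold; the dashed line is the median of all genes, −0.05.

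CTNNB1 encodes β-catenin, which acts both in transcription and at cadherin junctions. Its level was 122 CPM (interval 118 to 127) without and 139 CPM (135 to 144) with M2BPGi. The log2 ratio was 0.19 (0.12 to 0.26), a 1.14-fold higher level. The CPM intervals of the libraries did not overlap, as was the case for 17.7% of the 13724 genes in the higher and 23.7% in the lower direction. CTNNB1 was the most abundant of the 7 genes, at the 89.3rd percentile of level among the 13724 genes, and its ratio was at the 80.6th percentile. The gene lies at chr3:41194741-41260096 on the plus strand (GRCh38, GENCODE 29), where 56 transcripts with 49 different starts are annotated. The deposited values are 1 sum per gene and do not separate these starts.

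AXIN1 is the scaffold on which the destruction complex assembles. AXIN1 had 24.4 CPM (22.4 to 26.4) without and 29.8 CPM (27.7 to 32) with M2BPGi. Its log2 ratio of 0.28 (0.13 to 0.45), 1.22-fold higher, was the highest of the 7 genes and lay at the 88.2nd percentile of all ratios. AXIN1 is on the minus strand at chr16:287440-352673, with 5 annotated starts.

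APC binds β-catenin within the same complex, and its loss starts most colorectal adenomas. Unlike AXIN1, it was lower: 22.4 CPM (20.5 to 24.4) in non-treated cells against 17.4 CPM (15.8 to 19.1) in M2BPGi-treated cells, a log2 ratio of −0.34 (−0.55 to −0.18). APC was the least abundant of the 7 genes in both libraries. It lies on the plus strand at chr5:112707498-112846239, and a readthrough gene that shares its annotation was listed at 0.08 and 0.04 CPM.

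Promoters of AXIN1, APC and RNF43 are shown because these genes of the pathway differ in direction and the windows shown differ in base composition. APC and RNF43 have 2 windows each, and the one with less G and C is shown. The contrast in base composition thus partly follows from this choice. Sequences are the 250 bases before a RefSeq start (GRCh38.p14), written 5′ to 3′ on the gene's strand, with GC boxes (GGGCGG on either strand) in capitals. AXIN1 is from chr16:352724-352973 on the minus strand, APC from chr5:112707248-112707497 on the plus strand and RNF43 from chr17:58402722-58402971 on the minus strand. None of these 3 windows overlaps an exon annotated in GENCODE 29, and that of RNF43 lies inside the gene, before an internal start.
AXIN1: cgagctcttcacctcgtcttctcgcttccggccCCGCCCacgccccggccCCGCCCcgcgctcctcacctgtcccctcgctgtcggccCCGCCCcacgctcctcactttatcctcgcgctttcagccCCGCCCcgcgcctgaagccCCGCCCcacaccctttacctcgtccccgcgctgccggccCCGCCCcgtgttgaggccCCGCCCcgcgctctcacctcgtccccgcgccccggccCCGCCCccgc
APC: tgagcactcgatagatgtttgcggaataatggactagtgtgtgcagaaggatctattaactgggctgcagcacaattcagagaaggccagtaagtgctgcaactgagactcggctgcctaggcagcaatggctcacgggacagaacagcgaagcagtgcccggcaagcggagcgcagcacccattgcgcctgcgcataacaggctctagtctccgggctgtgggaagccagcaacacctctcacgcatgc
RNF43: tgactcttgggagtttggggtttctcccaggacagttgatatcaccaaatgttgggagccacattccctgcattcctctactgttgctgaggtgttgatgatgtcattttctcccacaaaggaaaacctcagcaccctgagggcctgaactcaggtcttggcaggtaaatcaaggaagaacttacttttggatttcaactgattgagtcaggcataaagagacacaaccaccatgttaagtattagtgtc

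The AXIN1 window held 8 GC boxes and 77.6% G and C. The APC and RNF43 windows held 0 GC boxes, with 56.4% and 45.2% G and C. RefSeq gave 9 promoters for 5 of the 7 genes, and GPC3 and LGR5 are named only. The other RNF43 window had 0 GC boxes and 56.0% G and C. The CTNNB1 window (chr3:41199255-41199504, plus strand) had 3 GC boxes and 74.4% G and C. It lies inside the CTNNB1 gene and wholly within annotated exons.

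Windows rich in G and C were found for genes of both directions. The first TCF7L2 window (chr10:112949997-112950246, plus strand) had 5 GC boxes and 68.0% G and C, and TCF7L2 was lower. The later TCF7L2 windows had 0 GC boxes, with 42.4% and 48.4% G and C, and the deposited sum does not separate these starts. A second APC window had 1 GC box and 70.0% G and C. Among 35116 RefSeq promoters of the same length, 42.6% held a GC box, and the median G and C content was 58.0%. Over kept genes with a single promoter, the median log2 ratio by quartile of G and C content, lowest first, was −0.04, −0.03, −0.07 and −0.05.

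The core of the TCF and LEF binding motif (CTTTGAT or CTTTGAA, either strand) was in 0 of the 9 windows, beside 5.94% of the 35116 promoters. The motif TATAAA (either strand) was likewise in 0 of the 9, beside 10.7%. These motifs do not overlap the GC box. Among kept genes with a single promoter, the 181 with the TCF and LEF core had a median log2 ratio of −0.03 and the 6050 without it −0.05. A window without these letters says nothing about binding elsewhere, and the motifs were picked after the sequences and values had been seen.

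TCF7L2 is a nuclear partner of β-catenin that binds DNA at Wnt target genes. It had 30.7 CPM (28.5 to 33.0) without and 25.5 CPM (23.6 to 27.6) with M2BPGi, a log2 ratio of −0.25 (−0.42 to −0.11). Among the lower genes, TCF7L2 and GPC3 had the smallest differences. The gene lies at chr10:112950250-113167678 on the plus strand, with 30 annotated transcripts.

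LGR5 is a receptor for R-spondins, marks stem cells of several epithelia and is itself induced by β-catenin. Its level was 54.8 CPM (51.9 to 57.9) without and 42.3 CPM (39.8 to 44.9) with M2BPGi. The log2 ratio was −0.37 (−0.49 to −0.26), 1.3-fold lower, at the 14.4th percentile of all ratios. LGR5 lies on chromosome 12 (chr12:71439770-71586310, plus strand). TSPAN8, a gene on the opposite strand that overlaps its annotation, had 36.0 and 24.8 CPM.

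RNF43 is a membrane ubiquitin ligase that removes Frizzled receptors from the cell surface, and R-spondins bound to LGR proteins block it. RNF43 had 38.8 CPM (36.4 to 41.4) without and 28.8 CPM (26.7 to 30.9) with M2BPGi. Its log2 ratio of −0.42 (−0.58 to −0.29), 1.35-fold lower, was the lowest of the 7 genes and at the 10.9th percentile. The feedback genes LGR5 and RNF43 thus both had lower levels with M2BPGi, with a median log2 ratio of −0.39. RNF43 is at chr17:58352500-58417595 on the minus strand. SUPT4H1 on the same strand overlaps its annotation and went the other way, with 65.2 CPM without and 78.0 CPM with M2BPGi.

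GPC3 encodes glypican-3, an oncofetal heparan sulfate proteoglycan of the cell surface that is used as a marker of hepatocellular carcinoma and can bind Wnt ligands. It had 62.5 CPM (59.4 to 65.8) without and 52.2 CPM (49.4 to 55.1) with M2BPGi. The log2 ratio was −0.26 (−0.37 to −0.15), 1.2-fold lower, close to the lower quartile of all genes. The gene is on chromosome X (chrX:133535745-133985895, minus strand). No transcript of a gene elsewhere in the genome matched the first 500 bases of any of the 7 genes over at least 100 bases with at least 95% identity. Genes annotated over APC and RNF43 do share such sequence: the readthrough gene of APC given above, and AC004687.2, which is not among the listed genes and overlaps RNF43.

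**Figure D2:**
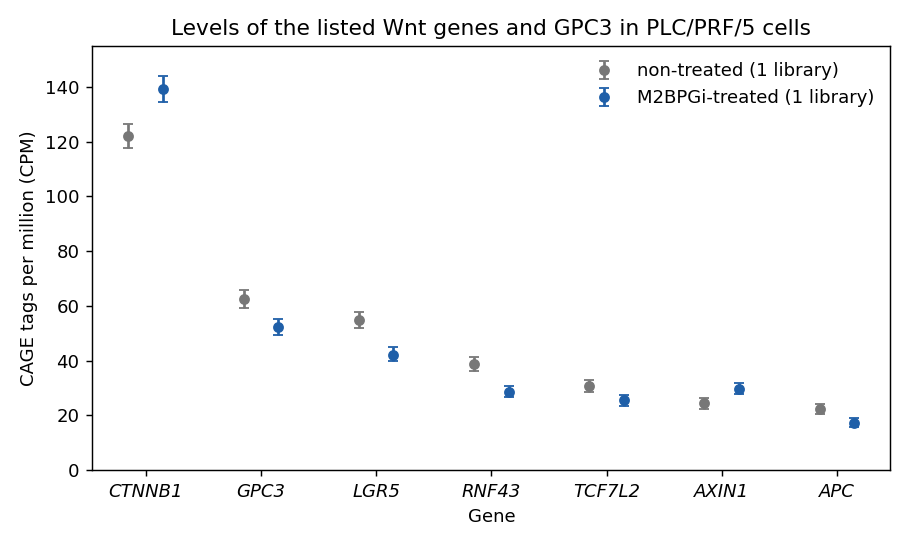
Level of each listed gene in CPM (linear axis from 0) in the non-treated library (grey) and the M2BPGi-treated library (blue), with 95% exact Poisson intervals from the tag numbers. CTNNB1 is the highest in both libraries (122 and 139 CPM), and the intervals of the libraries do not overlap for any of the 7 genes, as for 17.7% (higher) and 23.7% (lower) of all 13724 genes.

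A CAGE tag marks 1 capped end, so a level does not grow with transcript length and can be compared between genes. In non-treated cells the order of levels was CTNNB1, GPC3, LGR5, RNF43, TCF7L2, AXIN1 and APC, and of the neighbours in this order AXIN1 and APC had overlapping intervals. In M2BPGi-treated cells AXIN1 stood ahead of RNF43 and TCF7L2. There the intervals of AXIN1 and RNF43 overlapped, as did those of RNF43 and TCF7L2. AXIN1 thus stood in the fourth place instead of the sixth, without standing clear of RNF43.

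The summed level of the 7 genes was 356 CPM without and 335 CPM with M2BPGi, and the latter was 347 CPM with a trimmed mean of all ratios, a smaller difference. In the values as deposited, the 2 higher genes were together 22.7 CPM higher, and the summed difference of the 5 lower genes was −43.0 CPM. CTNNB1 made up 34.3% of the sum in non-treated and 41.5% in M2BPGi-treated cells. These shares do not depend on the scaling.

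**Figure D3:**
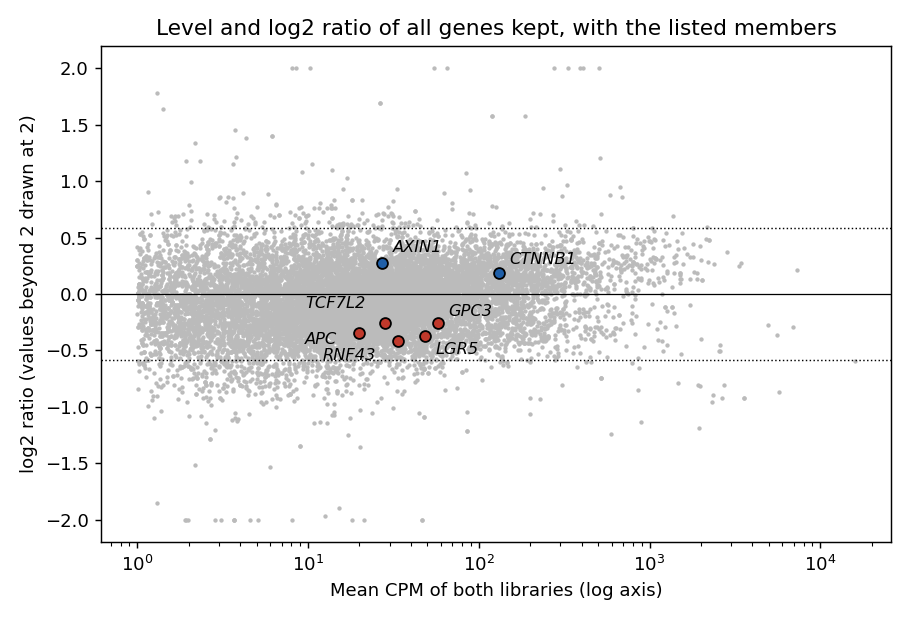
Mean level of both libraries in CPM (x, log axis) and log2 ratio, M2BPGi-treated over non-treated (y, values beyond 2 drawn at 2) for the 13724 genes (grey) and the listed Wnt genes and GPC3 (blue higher, red lower). The 7 genes lie inside the bulk of genes of like level and inside the dotted lines at 1.5-fold.

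Ratios between genes of the same library do not depend on how the libraries are scaled. All 21 pairs of the 7 genes were compared, with the exact conditional interval of the odds ratio of their tags. In 10 pairs the interval of the log2 change left out 0, and these were the 10 pairs of a higher with a lower gene. The other 11 pairs, of genes with the same direction, had 0 such intervals. The directions of the genes largely fix this division. The pairs named next, and those with genes outside the 7, were picked after the values were seen.

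The AXIN1 to APC ratio went from 1.09 to 1.71 tags per tag, a log2 change of 0.65 (0.41 to 0.90). The near parity of these partners of the destruction complex in non-treated cells was thus not kept in the M2BPGi-treated library. The CTNNB1 to APC ratio went from 5.45 to 8.0, a log2 change of 0.55 (0.35 to 0.75). The RNF43 to LGR5 ratio did not differ beyond counting error, at 0.708 and 0.680, with a log2 change of −0.06 (−0.24 to 0.13).

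β-catenin is shared between transcription and adherens junctions, where it joins cadherins to α-catenin. The tag ratio of CTNNB1 to CDH1, the gene of E-cadherin, was 0.903 in non-treated and 1.33 in M2BPGi-treated cells, a log2 change of 0.56 (0.46 to 0.66). Against CTNNA1 (α-catenin) the log2 change was 0.28 (0.17 to 0.39). Against JUP (plakoglobin, the closest relative of β-catenin) it was 0.47 (0.35 to 0.59). CTNNB1 was thus higher relative to each of these junction genes. The starts of CDH1 and CTNNA1 transcripts share near-identical stretches with other genes, which makes their own values less certain.

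**Figure D4:**
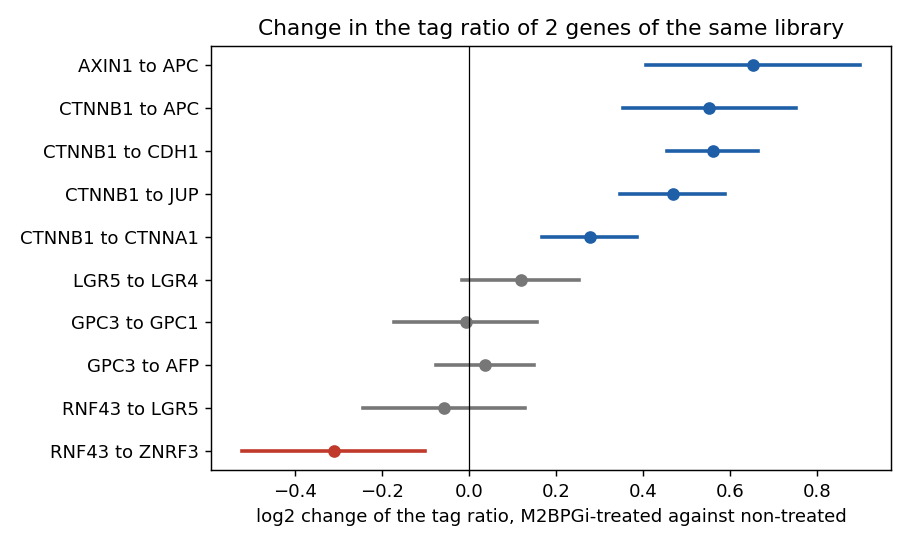
Log2 change in the ratio of the tags of a pair of genes, M2BPGi-treated against non-treated library (x), with exact conditional 95% intervals, for 10 named pairs (y). Ratios with CTNNB1 or AXIN1 on top lie above 0 and RNF43 to ZNRF3 lies below 0, while LGR5 to LGR4, GPC3 to GPC1, GPC3 to AFP and RNF43 to LGR5 cover 0.

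The other genes of the pathway are described by lists of known roles, with the count of genes higher and lower beside 42.9% and 57.0% of all 13724 genes in the values as deposited. Counts of intervals above and below 0 are to be read beside the 22.8% and 31.5% of all genes. With a trimmed mean of all ratios these were 27.7% and 26.1%, and counts of a list that differ there are given in parentheses. After a list's median, the range over the other pseudocounts, scalings and filters and without near-identical copies is given. Of 19 Wnt ligand genes 4 were listed, 3 higher and 1 lower, with a median log2 ratio of 0.14 (range 0.064 to 0.32) and summed levels of 25.3 and 30.9 CPM. WNT7B made up most of this, with 20.4 CPM without and 25.6 CPM with M2BPGi (log2 ratio 0.32, 0.16 to 0.50). PORCN, which acylates Wnt proteins for secretion, had 9.82 and 10.2 CPM, and the Wnt carrier gene WLS was listed at 0 CPM in both libraries.

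Frizzled and LRP proteins are the receptors for Wnt. Of 15 receptor genes 13 were listed, 2 higher and 11 lower, and the intervals of 6 lay below 0 and of 0 above (4 and 1). Their median log2 ratio was −0.17 (range −0.23 to −0.12) and their summed level 410.2 CPM without and 330.4 CPM with M2BPGi. FZD8, the most abundant, had 125 and 94.7 CPM. FZD5 had the lowest log2 ratio of those with at least 10 CPM, −0.48, from levels of 74.0 and 52.9 CPM. The co-receptor LRP5 had the highest, −0.09, with 18.7 and 17.5 CPM.

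LGR5 and RNF43 belong to the R-spondin module, which sets how much Frizzled stays at the surface. Of its 9 genes 4 were listed and all 4 were lower, with intervals below 0 for 3 of them and a median log2 ratio of −0.39 (range −0.40 to −0.34). Most of the tags came from LGR4, a paralog of LGR5, with 199 CPM without and 141 CPM with M2BPGi and a log2 ratio of −0.49 (−0.56 to −0.43). The LGR5 to LGR4 ratio was 0.275 and 0.299, a log2 change of 0.12 (−0.01 to 0.25). ZNRF3, the paralog of RNF43, had 30.2 and 27.7 CPM and a log2 ratio of −0.12 with an interval that covered 0 (−0.27 to 0.03). The RNF43 to ZNRF3 ratio went from 1.29 to 1.04, a log2 change of −0.31 (−0.52 to −0.10). The ligases thus differed in size of difference. Both LGR receptors were lower, and their ratio did not differ between the libraries beyond counting error.

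Secreted inhibitors and their co-receptors keep Wnt from its receptors. Of 13 such genes 6 were listed and 5 passed the filter, 1 higher and 4 lower (2 and 3), with a median log2 ratio of −0.12 (range −0.20 to 0.08). DKK3 was the only one averaging 10 CPM or more, so with that filter the value was its own. KREMEN1, a DKK co-receptor, had 11.3 CPM without and 5.83 CPM with M2BPGi, a log2 ratio of −0.85 with an interval whose upper end was −0.65. DKK3, the most abundant gene of the list by its mean level, had 10.4 and 11.1 CPM, below KREMEN1 in the non-treated library.

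Dishevelled proteins carry the signal from Frizzled to the destruction complex. Of 9 genes 5 were listed and 4 passed the filter, 2 higher and 2 lower, with a median log2 ratio of 0.04 (range −0.12 to 0.10) that was lowest with no filter beyond 1 tag. The paralogs differed in direction. DVL2 had 45.4 and 35.6 CPM (log2 ratio −0.34) and the most abundant, DVL3, 63.9 and 58.6 CPM (−0.12), while DVL1 had 30.2 and 35.2 CPM (0.21). DACT2, a binding partner of Dishevelled, was higher, with 15.1 and 19.9 CPM (0.38).

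The destruction complex list holds AXIN1 and APC. Of 12 genes 11 were listed, 5 higher and 6 lower (6 and 5), with 4 intervals above 0 and 1, that of APC, below 0. The median log2 ratio was −0.02, and its sign turned under other scalings (0.03 with the median of all genes at 0, and 0.03 with a trimmed mean of all ratios) and among genes averaging 10 CPM or more (0.019). The summed level was 297 CPM without and 341 CPM with M2BPGi. GSK3A, a kinase that marks β-catenin for degradation, had 50.7 and 75.5 CPM, a log2 ratio of 0.56 (0.47 to 0.68), while its paralog GSK3B had 35.6 and 35.0 CPM (−0.02, −0.16 to 0.11). The start of GSK3B transcripts shares near-identical stretches with other genes, so its tags could be split with them.

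CTNNB1 and TCF7L2 were 2 of 14 genes in the list of β-catenin and TCF partners. Of these 14, 13 were listed and 12 passed the filter, 7 higher and 5 lower. Their median log2 ratio was 0.10 (range −0.0078 to 0.15), and its sign turned both among genes averaging 10 CPM or more and without genes that have near-identical copies. CTNNBIP1, an inhibitor that keeps β-catenin from TCF, had 18.7 CPM without and 22.9 CPM with M2BPGi (log2 ratio 0.28, 0.11 to 0.47). TCF7L2 had the lowest log2 ratio of the list among genes with a mean of at least 10 CPM.

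Transcripts that β-catenin is known to induce did not share 1 direction. Of 15 feedback and common targets 10 were listed, 3 higher and 7 lower (5 and 5), with 1 interval above and 3 below 0 and a median log2 ratio of −0.07 (range −0.075 to −0.019). BAMBI, the most abundant, had 149.9 and 147 CPM (−0.02, −0.09 to 0.04). CCND1, the gene of the cell cycle regulator cyclin D1, was the highest, with 93.0 and 112 CPM (log2 ratio 0.27, 0.19 to 0.35), and RNF43 the lowest, both among genes averaging 10 CPM or more.

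Liver targets of β-catenin mark hepatocytes near the central vein. Of 11 such genes 4 were listed, 3 higher and 1 lower. Their median log2 ratio was 0.10 (range −0.10 to 0.15), and the negative values arose both among genes averaging 10 CPM or more and without genes that have near-identical copies. OAT, an enzyme of ornithine metabolism, had 117 CPM without and 132 CPM with M2BPGi (0.17, 0.10 to 0.25), and has a near-identical copy that could take or give tags. LGR5 was the lower one.

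GPC3 was also the most abundant of the glypican and heparan sulfate genes by its mean level. Of these 13, 10 were listed and 9 passed the filter, 1 higher and 8 lower, with 7 intervals below 0 and 0 above (6 and 0). The median log2 ratio was −0.24 (range −0.24 to −0.19), and the summed level 367 CPM without and 299.7 CPM with M2BPGi. EXT1, a polymerase of heparan sulfate chains, had 64.9 and 45.9 CPM (−0.49, −0.61 to −0.39), and NDST1, which sulfates them, 19.1 and 17.5 CPM (−0.12). The ratio of GPC3 to GPC1 was 1.3 in both libraries, with a log2 change of −0.01 (−0.17 to 0.16).

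**Figure D5:**
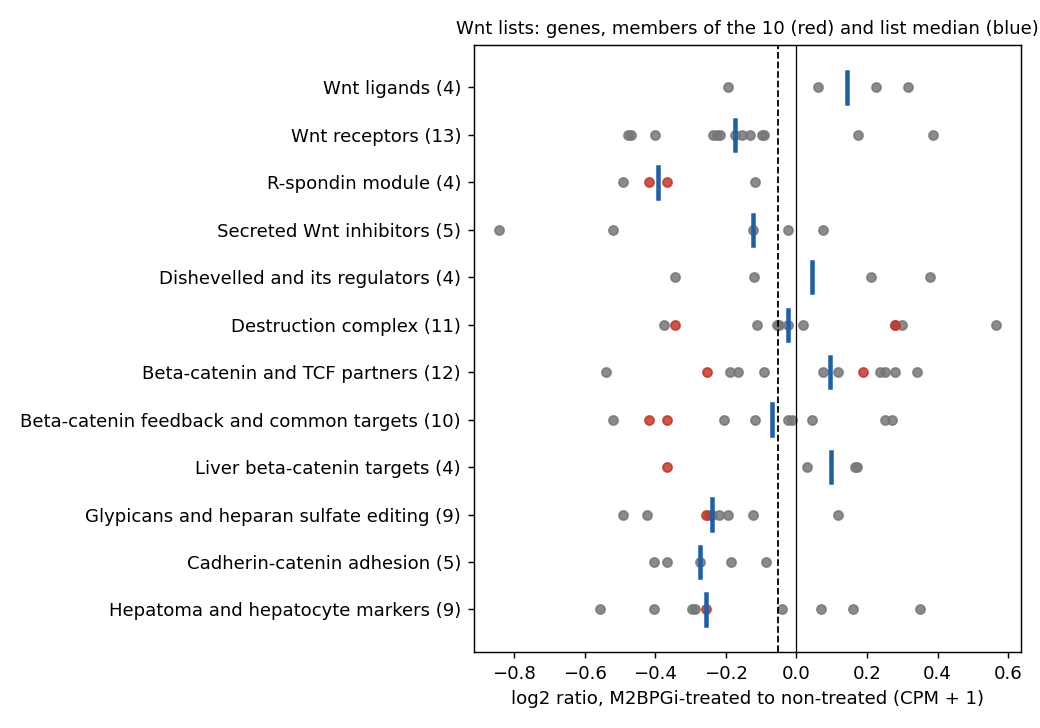
Log2 ratio, M2BPGi-treated over non-treated, (x) for each kept gene of 12 lists (y, with the number of kept genes), with listed Wnt members and GPC3 in red and the median of each list as a blue bar. Medians lie left of the dashed line (median of all genes, −0.05) for the receptor, R-spondin, secreted inhibitor, feedback target, glypican, cadherin-catenin and hepatoma lists, between it and 0 for the destruction complex, and right of 0 for the ligand, Dishevelled, TCF partner and liver target lists.

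The cadherin-catenin list holds genes of the junctions at which β-catenin also acts. It had 5 of 5 genes lower, with 5 intervals below 0 (4, without that of CTNNA1). The median log2 ratio was −0.27 (range −0.28 to −0.22). CDH2, the gene of N-cadherin, had 149 CPM without and 112 CPM with M2BPGi (log2 ratio −0.41), and CTNNA1 102 and 96.3 CPM (−0.09). CTNNB1, which is not in this list, was higher.

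Markers of hepatoma cells were read as a list that holds GPC3. All 9 were listed, 3 higher and 6 lower (4 and 5), with a median log2 ratio of −0.26 (range −0.29 to −0.15). That median was the value of GPC3 itself, so it does not set GPC3 beside the other markers. AFP, the fetal albumin relative used as a tumour marker, had 695 and 566 CPM (−0.30, −0.33 to −0.27). The GPC3 to AFP ratio was 0.0899 and 0.0922, a log2 change of 0.04 (−0.08 to 0.15), so the ratio of these oncofetal markers did not differ beyond counting error. SERPINA1, a secreted protease inhibitor of hepatocytes, had the lowest ratio, with 671 and 455 CPM (−0.56), and KRT18, an epithelial keratin with 15 near-identical copies, the highest, with 1250 and 1592 CPM (0.35). ALB and TTR, which encode plasma proteins of mature hepatocytes, were at 8.82 and 7.04 CPM and at 3.62 and 2.49 CPM, far under AFP. HNF4A went the other way, with 39.1 and 43.8 CPM (0.16, 0.04 to 0.29). APOA1 had 4.37 and 4.63 CPM (0.07, −0.31 to 0.48) and KRT8 835 and 811 CPM (−0.04, −0.07 to −0.01). The hepatocyte markers thus shared neither a direction nor a level.

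Markers of other liver cells were mostly not among the listed genes. Of 7 stellate cell and fibroblast markers 3 were listed, and their summed level of 261 and 205 CPM came almost wholly from RELN (256 and 200.4 CPM), with COL3A1 at 4.53 and 3.42 CPM and COL1A1 at 0.67 and 0.76 CPM. Of 7 macrophage markers 2 were listed, CD68 at 21.2 and 20.5 CPM and CSF1R at 0 in both libraries. Of 6 endothelial markers 0 were listed. Both libraries are from cultures of the PLC/PRF/5 hepatoma line, so these tags are not read as a share of other liver cells. In bulk RNA of a line, fewer cells that express a gene and less RNA per cell cannot be told apart. The part of these markers in the differences above was not tested.

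Transcript length moved with the ratio over all genes. In 5 groups of about equal size by the longest annotated transcript, shortest first, the median log2 ratios were 0.04, −0.01, −0.06, −0.07 and −0.12, for the 96.7% of kept genes with a length. APC and AXIN1 were in the group of longest transcripts and differed in direction. CTNNB1, LGR5, RNF43 and TCF7L2 were in the next group, and GPC3 was in the one from 1678 to 2685 bases. The part of length in these differences was not tested.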

How the data were processed

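CAGE libraries of PLC/PRF/5 cells were made and processed by the authors. According to the paper's methods, ribosomal tags and tags with undetermined bases were removed, the others were mapped with BWA, and the 5′ ends were clustered. The methods name a mouse genome, whereas the submitters' processing notes name hg19, BWA and HISAT2, and the gene IDs are those of human genes. The way tags were given to genes is not given in the sources used here, so overlapping genes and near-identical copies are uncertain. The authors deposited 1 CPM value per gene and library, rounded to 2 decimals.

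The CPM were turned back into tag numbers, as whole multiples of 1 tag (0.0416 CPM non-treated, 0.0402 CPM M2BPGi-treated). Within ±0.005 CPM, 100% of values above 0 were whole. They served for counting intervals and a binomial test. At a count of 0 the 1-sided 95% limit is about 3 tags, which is 0.125 and 0.121 CPM, under the upper end of the 2-sided intervals. Listed genes held 94.1% and 94.4% of all CPM, and 1299 were at 0 in both libraries.

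Log2 ratios used a pseudocount of 1 CPM, which understates differences of low genes, over genes with a mean of at least 1 CPM. Python 3.11.15, numpy 2.4.6, scipy 1.17.1, pandas 2.3.3, matplotlib 3.10.9 and BLAST+ 2.17.0 were used, and scripts were tested on simulated data. Copies were sought among GENCODE 29 transcripts (112 list genes, 15 with a copy). A near-identical copy means a match of at least 100 bases with at least 95% identity within the first 500 bases. It can be a short stretch of an unrelated gene. Gene positions are GRCh38 and promoters are from RefSeq (GRCh38.p14).

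The members and the 16 lists of related genes were chosen with earlier results of these data known. Named were all member genes, and in each list the most abundant gene, the genes of highest and of lowest log2 ratio that averaged 10 CPM or more, and genes past 1.5-fold. Other genes in the text (DVL1, GSK3B, ALB, TTR, HNF4A, APOA1, KRT8, COL3A1, COL1A1, CSF1R, WLS, JUP, CDH1, AFP, GPC1, TSPAN8 and SUPT4H1) and the list of planar cell polarity genes were picked after the values were seen. Alternatives were other pseudocounts, scalings, filters and fold thresholds.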

Additional observations from a re-analysis of the deposited data

How the results depend on the processing

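No paired analysis was possible because each group has 1 library and the labels give no shared replicate numbers. Under every pseudocount, scaling and filter tried, CTNNB1 and AXIN1 were higher and the other 5 listed genes lower. At a laxer fold threshold (0.32 on the log2 scale) 3 members were past it downwards, beside 18.4% of all genes. At 1.5-fold the count was 0 under each setting. All genes past 1.5-fold numbered 219 higher and 555 lower as reported, 336 and 856 with a pseudocount of 0.1 CPM, 91 and 164 with 5 CPM, 298 and 412 with the median shifted to 0, 292 and 441 with a trimmed mean of M-values, 135 and 223 at a mean of at least 10 CPM, and 33 and 59 past 2-fold.

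The sign of some list medians near 0 turned. Without a turn of sign, the Wnt ligand median (0.14) was 0.064 with a pseudocount of 5 CPM and 0.32 at a mean of at least 10 CPM, where WNT7B stands alone, and that of hepatoma markers (−0.26) was −0.15 at that filter. The destruction complex (−0.02) was at 0.027 with the median of all genes shifted to 0, 0.025 with a trimmed mean of M-values and 0.019 at a mean of at least 10 CPM. At that filter the secreted inhibitors (−0.12) were at 0.076, the β-catenin and TCF partners (0.10) at −0.0078 and the liver targets (0.10) at −0.10. With no filter beyond 1 tag the Dishevelled list (0.04) was at −0.12. Without genes that have near-identical copies, chosen after seeing the data, the β-catenin and TCF partners were at −0.0078 and the liver targets at −0.10. The filters and the omission of copies act by changing which genes are in a list, and the scalings by shifting all genes. The summed levels of 12 lists in M2BPGi-treated cells moved beyond counting error with the trimmed mean, whose library factor was 0.965. That of the members (335 CPM) was 347 CPM, beside 356 CPM without M2BPGi, and 3 sums turned from below to above that without M2BPGi: hepatoma markers (3569 CPM without, 3534 as reported, 3662 with the trimmed mean), feedback and common targets (421.8, 411, 426) and macrophage markers (21.17, 20.47, 21.21, within counting error). Of all genes 57.0% were lower as reported and 50.7% with the trimmed mean. Intervals of list genes left or crossed 0 with that scaling, and the same number did so with the median shifted to 0: below 0 were 4 in place of 6 receptors, 1 in place of 2 of the Dishevelled list, 6 in place of 7 glypican genes, 4 in place of 5 of the cadherin-catenin list and 3 in place of 6 hepatoma markers, and above 0 were 1 in place of 0 receptors and 4 in place of 3 TCF partners.

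A binomial test of the tags with Benjamini-Hochberg adjustment, which compares libraries and not conditions, called 2 members higher and 5 lower, beside 2869 higher and 3942 lower of all genes. The trimmed mean was computed by own code in place of the planned package, which needs deposited counts.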

Other observations

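A list of planar cell polarity and other non-canonical Wnt genes was written after the values had been seen and supports nothing. Of 24 genes 18 were listed and 16 passed the filter, 6 higher and 10 lower, with a median log2 ratio of −0.05, the same as that of all genes. PRICKLE4, a LIM-domain relative of a core polarity gene, had 17.4 CPM without and 8.33 CPM with M2BPGi, a log2 ratio of −0.98. Another annotated gene of the same name overlaps it and shares sequence, which makes its value less certain. CELSR1, an atypical cadherin of the polarity core, was also lower, with 24.2 and 16.7 CPM (−0.51), and SCRIB, a scaffold of apical-basal polarity, was higher, with 10.4 and 14.9 CPM (0.47). The most abundant were the small GTPases RHOA, with 259 and 294 CPM (0.18), and RAC1, with 221 and 289.6 CPM (0.39), the latter with near-identical copies.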
